A study of Saccharomyces cerevisiae with 3 samples.

Results

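The 9 genes of the yeast mevalonate pathway were followed on the 3 arrays of a tomatidine experiment. They are ERG10, ERG13, the HMG-CoA reductase genes HMG1 and HMG2, ERG12, ERG8, MVD1, IDI1 and ERG20, and they were taken as all non-control probe sets annotated to one of these symbols. Their systematic names are YPL028W for ERG10, YML126C for ERG13, YML075C for HMG1, YLR450W for HMG2, YMR208W for ERG12, YMR220W for ERG8, YNR043W for MVD1, YPL117C for IDI1 and YJL167W for ERG20, and ERG13, HMG1, ERG12 and ERG8 lie on chromosome XIII. This gave 12 of 9275 non-control probe sets and 9 of 5656 genes with a probe set of their own. The strain was Saccharomyces cerevisiae S288c, the reference laboratory strain, and RNA was taken after 5 h in dimethylformamide (DMF) alone, in 7.5 µM tomatidine or in 15 µM tomatidine, both given in DMF. Tomatidine is a steroid-like alkaloid of tomato, released when the sugars of tomatine are removed. Each condition had 1 array, so no replicate error, test or p-value exists, and both doses are set against the same DMF array. The labels name no genotype beyond the strain. As background, S288c has the alpha mating type and carries a transposon insertion in HAP1, the gene of a heme-dependent activator that acts on HMG1 among others. The 4 alpha-specific genes examined were above the signal floor on every array, and the 6 a-specific genes were at or below it on every array. At 15 µM, 2 of the 4 alpha-specific genes were at least 2-fold lower than in DMF, SAG1 (3.80-fold) and MF(ALPHA)2 (2.75-fold). Of all genes compared, 1.14% were that much lower. STE3 had the highest ratio of the 4 there, 1.41-fold lower. At 7.5 µM over DMF none of the 4 reached 2-fold, where 0.614% of all genes were that much lower.

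The mevalonate pathway turns acetyl-CoA into farnesyl pyrophosphate, the common precursor of ergosterol, dolichol, ubiquinone, heme A and the prenyl anchors of proteins. Its slow step is the reduction of HMG-CoA to mevalonate, the step that statins block. Yeast has a pair of reductases for it. HMG1 is induced with oxygen and heme and its protein is stable, whereas HMG2 is favoured when oxygen is low and its protein is degraded at the endoplasmic reticulum when the pathway's products are plentiful. Much of the known control of this step therefore lies in the protein, which arrays do not measure.

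All levels below are scaled signals, that is, the deposited probe set signals divided by the array median and brought to a common level. They have no unit and can be set against each other only within a probe set. Ratios were computed after signals below 18.2, the 40th percentile of all scaled signals, were raised to that floor, and 4723 genes above it on at least 1 array were compared. A gene is called at 2-fold or more. In RNA of whole cultures, fewer expressing cells and less RNA per cell cannot be told apart. As a stand-in for replicate error, the log2 ratios given by different probe sets of a gene had a pooled within-gene SD of 0.38 at 15 µM over DMF, 0.34 at 7.5 µM over DMF and 0.29 at 15 µM over 7.5 µM, across 173 genes; this holds no difference between cultures. For actin, the signal near the 3' end over that near the 5' end, a sign of RNA integrity, was 1.63 on the DMF array, 1.80 at 7.5 µM and 1.47 at 15 µM. For SPT15, the TATA-binding protein gene, it was 3.30 on the DMF array, 2.35 at 7.5 µM and 2.48 at 15 µM, so that DMF, which both dose comparisons share, was highest there; the part of this in the ratios was not tested. After scaling, the spike controls of bacterial and phage origin had geometric means of 219.6 on the DMF array, 136.6 on the 7.5 µM array and 123 on the 15 µM array. Scaling on these spikes would add 0.84 to every log2 ratio of 15 µM over DMF before the floor, 0.68 at 7.5 µM over DMF and 0.15 at 15 µM over 7.5 µM, so all ratios here are relative to the median probe set.

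**Figure D1:**
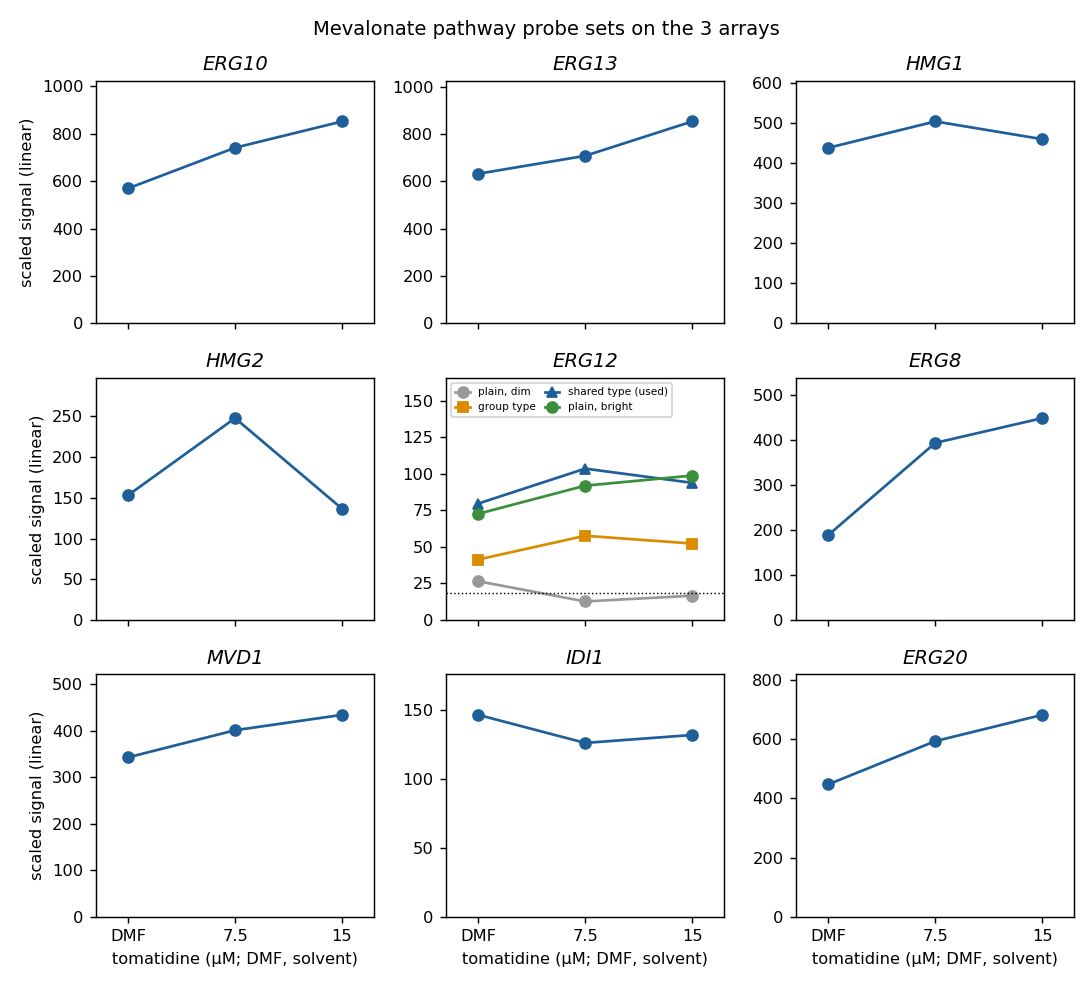
Scaled signal (linear, no unit) of each of the 12 probe sets on the DMF, 7.5 µM and 15 µM arrays, 1 point per array, with a panel per gene and the floor of 18.2 dotted in the ERG12 panel. ERG8 has the largest fold over its own DMF value at both doses, HMG2 is at 248 on the 7.5 µM array against 137 on the 15 µM array, and the dim ERG12 probe set runs against the other 3.

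At 15 µM, 1 of the 9 genes, ERG8, was at least 2-fold higher than in DMF and none was 2-fold lower. Over all genes compared, 2.73% were called higher and 1.14% lower. The median log2 ratio of the 9 genes was 0.34, against -0.03 over all genes compared. Of the 9, 7 lay above 0, as did 46.3% of all genes. At 7.5 µM over DMF the count was again 1 higher, ERG8, and none lower, where 1.99% of all genes were called higher and 0.614% lower. The median of the 9 was 0.38, against -0.03 over all genes, with 8 above 0, as were 44.8% of all genes. Between the doses none of the 9 reached 2-fold in either direction, where 0.72% of genes were called higher at 15 µM and 0.296% lower. With the arrays scaled on the spikes, 6 of the 9 genes were called higher at 15 µM over DMF and 5 at 7.5 µM over DMF, where 26.7% and 16.5% of 4829 genes were. All 9 then lay above 0 at both doses over DMF, where the medians of all genes were 0.74 and 0.59. A count of 1 in 9 genes is not read as a result about the pathway as a whole. With a limit of 1.5-fold, ERG8 and ERG20 were higher at 15 µM over DMF (8.26% of all genes) and none of the 9 was lower (6.9%). At 7.5 µM over DMF, ERG8 and HMG2 were higher (8.62%) and none was lower (5.21%). At 15 µM over 7.5 µM none was higher (4.07%) and HMG2 was lower (3.09%).

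The pathway opens with ERG10, acetoacetyl-CoA thiolase, which joins acetyl-CoA units. Its signal was 569 in DMF, 741 at 7.5 µM and 852 at 15 µM. Each array lay above that of the next lower dose, and the log2 ratio was 0.58 at 15 µM over DMF and 0.38 at 7.5 µM over DMF, below the 2-fold line. ERG13, HMG-CoA synthase, adds the next acetyl unit and had signals of 632 in DMF, 708 at 7.5 µM and 854 at 15 µM. The 15 µM array stood apart more than the 7.5 µM array did. Its ratio at 7.5 µM over DMF, 0.16, was smaller than the probe set spread, and that at 15 µM over DMF, 0.43, was slightly larger.

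HMG1, the reductase isozyme of aerated cells, gave signals of 438 in DMF, 504 at 7.5 µM and 460.0 at 15 µM. The log2 ratios were 0.07 at 15 µM over DMF, 0.20 at 7.5 µM over DMF and -0.13 at 15 µM over 7.5 µM, all smaller than the probe set spread; the last turned to 0.02 with spike scaling. HMG2, the isozyme of low oxygen, gave 153 in DMF, 248 at 7.5 µM and 137 at 15 µM. Its 7.5 µM array stood above both others, while DMF and 15 µM lay close together. The log2 ratio was 0.69 at 7.5 µM over DMF (1.62-fold) and -0.86 at 15 µM over 7.5 µM (1.81-fold lower), neither of which is a call. At 15 µM over DMF it was -0.17, or 0.67 with spike scaling, where the median of all genes was itself 0.74.

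Set among all genes, HMG2 had one of the lower ratios between the doses, with 34 of 4723 genes lower still. A signal at 7.5 µM at least 1.5-fold above both other arrays, a pattern chosen after the HMG2 values were seen, occurred in 48 genes or 1.02% of those compared, and HMG2 was the only such gene of the 9. The HMG2 ratio differed from that of HMG1 by -0.23 at 15 µM over DMF, by 0.49 at 7.5 µM over DMF and by -0.73 at 15 µM over 7.5 µM, on the log2 scale. Such a difference does not depend on a linear scaling of the arrays. It had opposite signs at the doses over DMF, with 1 probe set per isozyme and 1 array per dose behind it. The -0.23 was smaller than the probe set SD of a single ratio, 0.38, while the 0.49 exceeded that at its dose, 0.34. A difference of 2 ratios varies more than a single ratio, so the change of sign is not read as a result.

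ERG12, mevalonate kinase, the first of the kinases, was read by 4 probe sets. The brightest, of the shared type, gave 79.6 in DMF, 104 at 7.5 µM and 93.8 at 15 µM. A plain probe set, of the type designed without shared probes, gave 72.6, 91.9 and 98.8 in the same order, and a probe set of the group type gave 41.4, 57.6 and 52.3. All 3 were lowest in DMF, and they differed in which dose was highest. Their log2 ratios lay between 0.24 and 0.44 at 15 µM over DMF and between 0.34 and 0.48 at 7.5 µM over DMF. The fourth, a dim plain probe set, gave 26.6 in DMF but 12.7 at 7.5 µM and 16.7 at 15 µM, both below the floor. It ran the other way, at least 1.46-fold lower at either dose than in DMF. With all 4 averaged, the ERG12 ratio was at most 0.12 at 15 µM over DMF and at most 0.16 at 7.5 µM over DMF. These are upper bounds because the dim probe set was raised to the floor at both doses.

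ERG8, phosphomevalonate kinase, follows ERG12 in the pathway and had the highest ratio of the 9 genes against DMF at either dose. Its signal was 188 in DMF, 393 at 7.5 µM and 448 at 15 µM. Both treated arrays stood well above DMF and close to each other. It was 2.38-fold higher at 15 µM than in DMF and 2.08-fold higher at 7.5 µM than in DMF, and 1.14-fold higher at 15 µM than at 7.5 µM. Of 4723 genes, 69 had a higher ratio at 15 µM over DMF and 74 at 7.5 µM over DMF. At 15 µM over DMF its distance of 0.64 log2 units from the next gene, ERG20, exceeded the probe set SD of 0.38. The other neighbours in the order of ratios lay within that SD. At 7.5 µM over DMF its distance from the next gene, HMG2, was 0.37, against an SD of 0.34. These SDs are of a single ratio, and a distance between 2 ratios varies more.

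MVD1, mevalonate pyrophosphate decarboxylase, which makes isopentenyl pyrophosphate, gave 342 in DMF, 401 at 7.5 µM and 434 at 15 µM. Both treated arrays stood slightly above DMF. The log2 ratio was 0.34 at 15 µM over DMF and 0.23 at 7.5 µM over DMF, within the probe set spread. IDI1, the isomerase that forms dimethylallyl pyrophosphate, gave 146 in DMF, 126 at 7.5 µM and 132 at 15 µM, and was the only one of the 9 genes highest in DMF. Its log2 ratios of -0.15 at 15 µM over DMF and -0.22 at 7.5 µM over DMF were within the spread, and were 0.68 and 0.47 with spike scaling. Relative to the median of all genes they were -0.06 and -0.12 with that scaling. ERG20, farnesyl pyrophosphate synthase, closes the pathway and gave 447 in DMF, 593 at 7.5 µM and 682 at 15 µM. As for ERG10, each array stood above the one of the next lower dose. The log2 ratio was 0.61 at 15 µM over DMF (1.53-fold) and 0.41 at 7.5 µM over DMF.

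In 5 of the 9 genes (ERG10, ERG13, ERG8, MVD1 and ERG20) the signal stood in the order DMF, 7.5 µM, 15 µM from low to high, an order held by 16.3% of all genes compared. HMG1, HMG2 and ERG12, by its brightest probe set, were highest at 7.5 µM. The brighter plain probe set of ERG12 was highest at 15 µM (98.8, against 91.9 at 7.5 µM). The count of 5 depends on the scaling. With spike scaling, HMG1, ERG12 and IDI1 also took the rising order, with log2 ratios at 15 µM over 7.5 µM of 0.02, 0.01 and 0.22. The share of all genes in that order was not computed with spike scaling. No gene of the 9 had the opposite order, which 21.1% of all genes had. With 1 array per dose, such an order has no error estimate. The steps from 7.5 µM to 15 µM in those 5 genes were small, with log2 ratios from 0.11 for MVD1 to 0.27 for ERG13, all within the probe set SD of 0.29.

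Directly after ERG20 the sterol branch begins with ERG9, squalene synthase, whose signal was 173 in DMF, 440 at 7.5 µM and 409 at 15 µM. It was 2.36-fold higher at 15 µM than in DMF. At 15 µM over DMF, 1 of the 9 mevalonate genes was called higher, while of the 16 genes from squalene to ergosterol 10 were (ERG9, ERG1, ERG7, ERG24, ERG26, ERG27, ERG28, ERG3, CYB5 and ERG4), against 2.73% of all genes compared. The medians were 0.34 and 1.09. At 7.5 µM over DMF the counts were 1 of 9 and 7 of 16, ERG5 among these 7, against 1.99% of all genes, with medians of 0.38 and 0.98. The lowest ratio in the 16 at 15 µM over DMF was that of ERG11, the lanosterol demethylase (0.39), which is close to the mevalonate median. The difference between the segments was not tested, since no replicate exists.

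**Figure D2:**
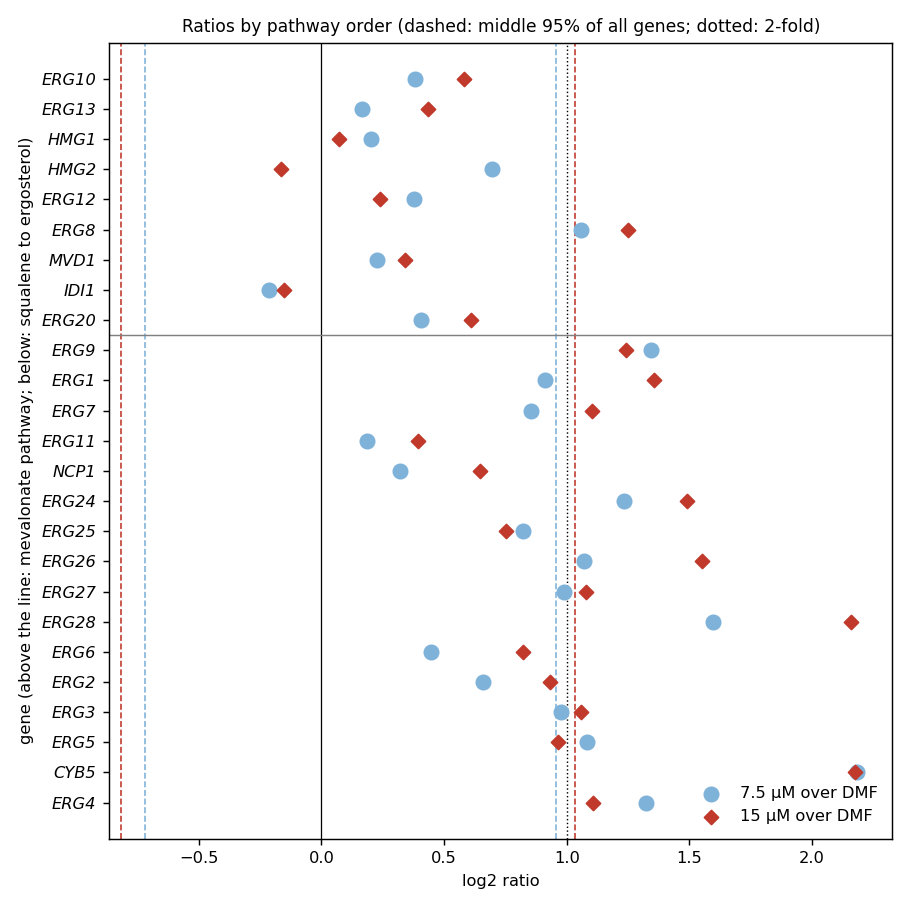
Log2 ratio of 7.5 µM over DMF (circles) and 15 µM over DMF (diamonds), which share the DMF array, for the 9 mevalonate genes above the grey line and the 16 genes from squalene to ergosterol below it, in pathway order. Dashed lines bound the middle 95% of all genes compared, in the colour of each dose, and the dotted line is 2-fold; ERG8 is the mevalonate gene to its right.

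None of the genes examined in the other branches that use the pathway's products was called. Over all genes compared, 2.73% were called higher and 1.14% lower at 15 µM over DMF, and 1.99% and 0.614% at 7.5 µM over DMF. In so few genes, no call is near those shares and is not read as a result about these branches. Of 11 genes for dolichol, ubiquinone, heme A, transfer RNA and protein prenylation, 9 passed the floor on 1 array or more. Their median log2 ratio was -0.04 at 15 µM over DMF and -0.05 at 7.5 µM over DMF. Values at 15 µM over DMF ran from -0.33 for COX10, a farnesyl transferase of heme A synthesis, to 0.41 for MOD5, which modifies transfer RNA with the isomerase's product. Of 7 genes on the route from pyruvate through acetaldehyde to acetyl-CoA, 6 were above the floor. None of these 6 was called, again near the shares over all genes. Their median was -0.13 at 15 µM over DMF and -0.05 at 7.5 µM over DMF, with PDC1, the main pyruvate decarboxylase, lowest (-0.60) and ALD4, an aldehyde dehydrogenase of mitochondria, highest (0.37) at 15 µM over DMF.

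The 15 genes examined around the degradation of the Hmg2 protein were all above the floor. None was called at 15 µM over DMF, where 2.73% of all genes were called higher and 1.14% lower. Their median was 0.09 there and -0.02 at 7.5 µM over DMF. HRD1, the ubiquitin ligase named for HMG-CoA reductase degradation, had signals of 24.4 in DMF, 44.7 at 7.5 µM and 42.3 at 15 µM. Its log2 ratio of 0.79 was the highest of the list at 15 µM over DMF, and it rests on signals near the floor. DER1, a membrane protein of degradation at the endoplasmic reticulum, was called at 7.5 µM over DMF (2.03-fold), where 1.99% of all genes were called higher. Its DMF signal of 19.2 was just above the floor, and its probe set is of the shared type. A role of DER1 in the control of Hmg2 was not tested. UBX2, which recruits the Cdc48 ATPase, was lowest (-0.37). NSG1 and NSG2, the yeast relatives of mammalian INSIG, named after their values were seen, had log2 ratios of -0.18 and 0.09 at 15 µM over DMF.

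Of 6 transcription factor genes tied to sterol and oxygen control, none was called at 15 µM over DMF, with a median log2 ratio of -0.12. Over all genes compared, 2.73% were called higher there and 1.14% lower. UPC2, an activator of sterol genes, was at least 1.59-fold higher there, with a DMF signal of 10.4 below the floor, and its relative ECM22 was lowest (-0.49). ROX1, the repressor of low-oxygen genes, was called at 7.5 µM over DMF (2.08-fold), where 1.99% of all genes were called higher. Its signals were 27.7 in DMF, 57.7 at 7.5 µM and 33.3 at 15 µM, so that it peaked at 7.5 µM. Those in DMF and at 15 µM were near the floor. A signal at 7.5 µM at least 1.5-fold above both other arrays occurred in 48 genes (1.02%), ROX1 and HMG2 among them. A link between ROX1 and HMG2 was not tested. HAP1, named after its value was seen, had a log2 ratio of -0.46 at 15 µM over DMF, from a probe set of the family type, so its value is uncertain.

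Yeast has other gene pairs with an aerobic and a low-oxygen form, and 4 of them were set beside HMG1 and HMG2. At 15 µM over DMF the low-oxygen form exceeded its aerobic partner in log2 ratio by at least 1.21 for CYC7 over CYC1 (cytochrome c), 0.40 for COX5B over COX5A (a cytochrome oxidase subunit) and 0.27 for ANB1 over HYP2 (translation factor eIF5A). The difference was -0.49 for AAC3 over PET9 (the ADP/ATP carrier) and -0.23 for HMG2 over HMG1. At 7.5 µM over DMF the differences were at least 1.06 for CYC7, 0.47 for COX5B, 0.12 for ANB1, 0.54 for AAC3 and 0.49 for HMG2. The ANB1 differences were smaller than the probe set SD of a single ratio at both doses (0.38 and 0.34). The HMG2 difference at 15 µM over DMF was too, and that of COX5B there was only just above it. CYC1 had a log2 ratio of -0.98 at 15 µM over DMF, while CYC7 had at least 0.23, since its DMF signal lay below the floor. COX5A had -0.30 and COX5B 0.10, and HYP2 had -0.24 and ANB1 0.03. With the arrays scaled to the median, HMG1 was the only aerobic form of the 5 pairs with a ratio above 0 there. That ratio, 0.07, lay within the probe set SD of 0.38, as did those of COX5A and HYP2, so its sign is not read as a result.

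**Figure D3:**
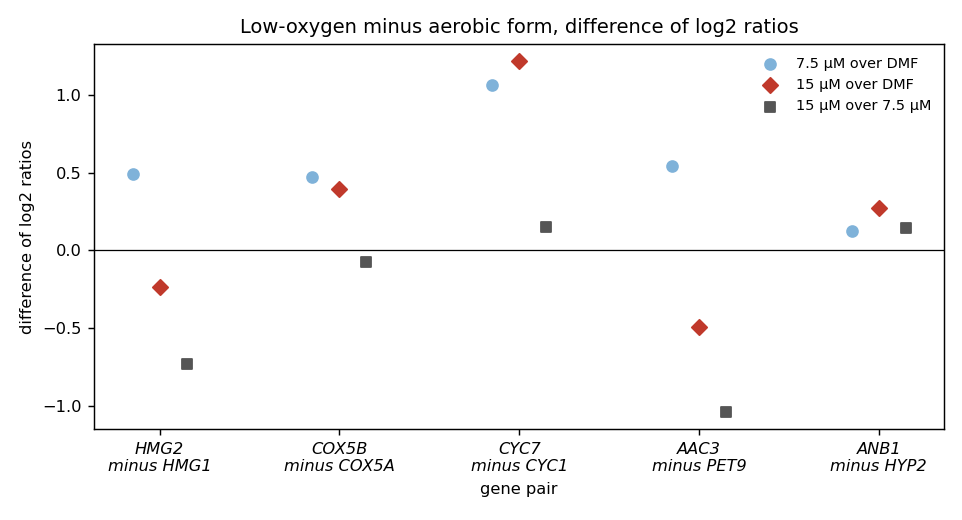
Log2 ratio of the low-oxygen gene minus that of its aerobic partner for 5 gene pairs, at 7.5 µM over DMF (circles), 15 µM over DMF (diamonds) and 15 µM over 7.5 µM (squares). The HMG2 and AAC3 pairs lie above 0 at 7.5 µM over DMF and below 0 at 15 µM over DMF. At 15 µM over DMF the HMG2 difference is smaller than the probe set SD of a single ratio. The other 3 pairs lie above 0 in both, and the CYC7 points over DMF are lower bounds. The ANB1 differences over DMF are also smaller than that SD (0.38 at 15 µM, 0.34 at 7.5 µM). The COX5B difference at 15 µM over DMF, 0.40, is only just above it. A difference of 2 ratios varies more than a single ratio.

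Genes with the pattern most like that of a member over the 3 arrays were sought among 4208 other genes above the floor on every array, by the Euclidean distance of the log2 signals, each gene centred on its mean. For HMG2 these were YRB30, a Ran-binding protein gene, YPR170W-B and APT1, adenine phosphoribosyltransferase, at distances of 0.02, 0.03 and 0.05. For ERG8 they were GLC3, the glycogen branching enzyme, COT1, a vacuolar metal transporter, and COQ4, of ubiquinone synthesis, at 0.01, 0.05 and 0.06. Within a distance of 0.25 lay 50 genes for HMG2 and also 50 for ERG8. For HMG1, whose signal hardly differed between arrays, 1359 genes lay within 0.25, with YHR020W, DUT1 (dUTPase) and SNR13 nearest.

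**Figure D4:**
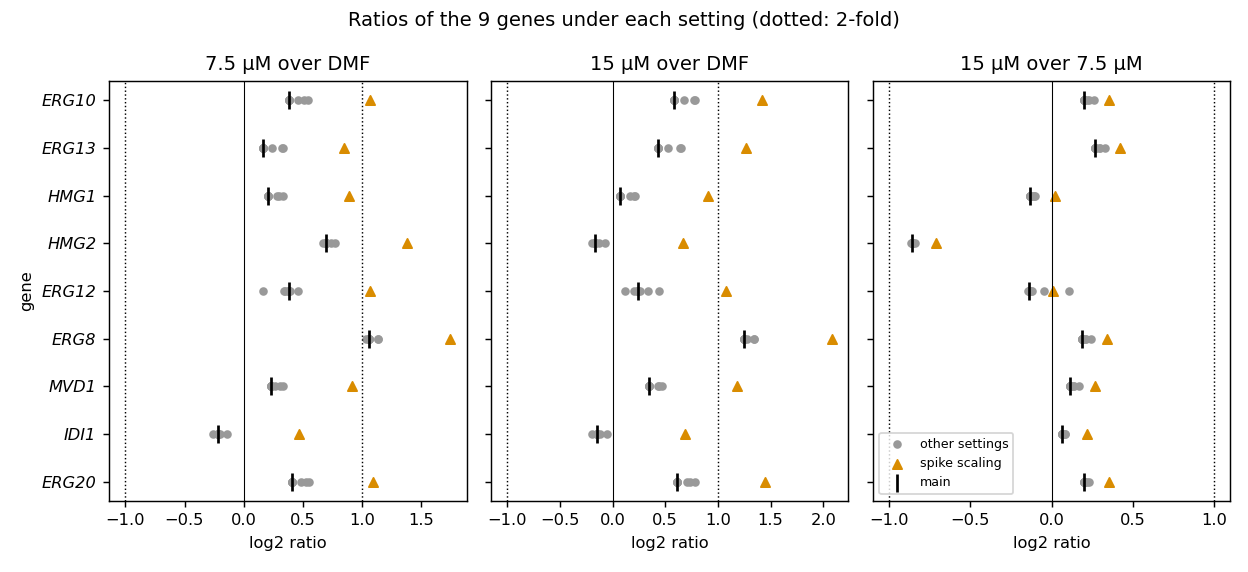
Log2 ratio of each of the 9 genes (rows) in the 3 comparisons (panels) under the main setting (bar), spike scaling (triangle) and the other alternatives (grey points), with 2-fold dotted. ERG8 stays beyond 2-fold over DMF under every setting shown, and spike scaling moves all 9 genes to the right.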

How the data were processed

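Total RNA of 3 conditions was measured on 1 Affymetrix yeast array each. The deposited table holds a linear intensity for every probe set on each array, summarised from its probes by the authors. How they summarised, corrected and scaled it is not given in the sources used here. These intensities, as deposited, had a mean of 100.1 on each array when the lowest and highest 2% were left out, so a global scaling had been applied, which hides any shift of messenger RNA as a whole.

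Of 9335 probe sets 60 were controls. The annotation gave 6504 probe sets a single gene, all of which matched the R64 gene table, used for symbols and neighbouring genes. Non-control signals were divided by their array's median and multiplied by the mean of the 3 medians. Signals under the 40th percentile of all scaled values were raised to it before log2 was taken. The brightest probe set stood for a gene with several. A call needed a 2-fold ratio and a brighter array above this floor. This rule of size took the place of a test, since 1 array per condition allows none.

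The 9 genes, the other lists and the alternatives were chosen with earlier results of these data known. Named were all probe sets of the 9 genes, the 3 genes most like HMG1, HMG2 and ERG8, and, of each other list, the members called against the solvent and those with the highest and lowest ratio at 15 µM; the isoform pairs were named whole. NSG1, NSG2, HAP1 and the chromosomal neighbours were added for their roles or positions after their values were seen. A planned motif search was not run, since promoter sequences were not used here. Alternatives were the values as deposited, scaling on 8 spike probe sets, quantile normalization, floors at the 20th and at the 60th percentile, lowess centring with a span of 0.3, a pseudocount at the 5th percentile in place of a floor, all or only plain probe sets of a gene, and a 1.5-fold rule. The scripts ran in Python 3.11.15 with pandas 2.3.3, numpy 2.4.6, matplotlib 3.10.9 and statsmodels 0.14.6.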

Additional observations from a re-analysis of the deposited data

How the results depend on the processing

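ERG8 was at least 2-fold higher over DMF at both doses under every alternative run, with log2 ratios from 1.25 to 2.08 at 15 µM and from 1.03 to 1.74 at 7.5 µM. With spike scaling, 6 of the 9 genes were called higher at 15 µM over DMF (26.7% of 4829 genes) and 5 at 7.5 µM over DMF (16.5%), and the medians of the 9 were 1.18, 1.06 and, for 15 µM over 7.5 µM, 0.27, while the medians of all genes were 0.74, 0.59 and 0.14. With all probe sets averaged, the median at 7.5 µM over DMF was 0.23, since ERG12 then includes its dim probe set. A 1.5-fold rule gave 2 higher genes at 15 µM over DMF (8.26% of all genes) and 2 at 7.5 µM over DMF (8.62%), and 1 lower gene at 15 µM over 7.5 µM (3.09%). Of 243 values of single genes under alternatives, 225 moved by less than the probe set SD, and the 18 that moved further were all under spike scaling. Many of the 225 could not move. Every signal used for the 9 genes lay above the floors at the 20th and 60th percentiles (5.16 and 45.6). Only ERG12 has several probe sets, so the probe set settings could change no other gene. The ERG12 ratio at 15 µM over 7.5 µM was 0.10 with plain probe sets, against -0.14. Over all genes the higher and lower calls at 15 µM over DMF were 129 and 54, but 202 and 143 when floored at the 20th percentile, 85 and 27 at the 60th, 150 and 88 with a pseudocount and 1288 and 7 with spike scaling. At 7.5 µM over DMF they were 94 and 29, but 126 and 19 as deposited, 157 and 128 with the 20th percentile floor, 56 and 10 with the 60th, 116 and 66 with the pseudocount and 798 and 4 with the spikes. At 15 µM over 7.5 µM they were 34 and 14, but 121 and 54 with the 20th percentile floor, 10 and 7 with the 60th, 68 and 28 with the pseudocount and 68 and 4 with the spikes. No paired analysis was possible because each condition had 1 array. The number of arrays limits the precision throughout.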

Other observations

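The genes next to the 9 genes on their chromosomes were also read. Of 17 adjacent protein-coding genes above the floor, none was 2-fold higher and 1 was 2-fold lower at 15 µM over DMF. Over all genes compared, 2.73% were called higher there and 1.14% lower, so these counts are not read as a result about the neighbours. Their median log2 ratio was -0.15, against -0.03 over all genes. The lower one was AGA1, an agglutinin anchor subunit next to MVD1, with a log2 ratio of -1.60. ERG8, with 1.25 at 15 µM over DMF, stands between ESC1 (-0.10) and FMP42 (0.05). At 7.5 µM over DMF these neighbours had 0.64 and 0.54, against 1.06 for ERG8 itself. HMG2, with 0.69 at 7.5 µM over DMF, lies between FPR4 (0.19) and LEU3 (0.21), and at 15 µM over 7.5 µM FPR4 had -0.33 and LEU3, below the floor at 15 µM, -0.34 or lower, against -0.86 for HMG2. HFA1, the mitochondrial acetyl-CoA carboxylase gene transcribed away from ERG12, had -0.79 at 15 µM over DMF. These neighbours were named after their values were seen.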
